A study of Arabidopsis thaliana with 14 samples.

Results

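The comparison described here asks whether roots that lack the boric acid channel NIP5;1 respond to low boron differently from roots that have it. All 14 arrays of the series entered it, as 7 Arabidopsis thaliana genotypes (ecotype Col-0) that were each measured at 2 boron levels. For every genotype the signal at 0.3 µM boron was divided by the signal at 100 µM boron on the log2 scale, and this log2 ratio is called the response. The 4 responses of the genotypes with NIP5;1 mutated (the single mutant nip5;1 and 3 double mutants, in which bor1, bor2 or nip6;1 was mutated as well), called channel mutants, were compared with the 3 responses of the genotypes in which it was intact (wild type, bor1 and bor2). The difference of responses is the mean of the 4 minus the mean of the 3, so that a positive value means a response that was higher, or less negative, in the channel mutants.

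Seedlings spent 10 days on medium containing 100 µM boron, were moved to 0.3 or 100 µM boric acid for a further 2 days, and their roots were taken at an age of 12 days. The labels describe reduced root and shoot growth at low boron for all 4 channel mutants, reduced leaf expansion for bor1 and reduced root length for bor2. Where the labels name alleles they are nip5;1-1, bor1-1 and bor2-1. The number of plants pooled per array is not known here. A single array was made per genotype and level, so the genotypes of a class are the units of every test and no single genotype has a replicate check. The nip6;1 mutation occurs in 1 genotype only, together with nip5;1, and has no counterpart among the intact genotypes.

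Boron is an essential nutrient of plants that cross-links the pectin of the cell wall through its rhamnogalacturonan II side chains. NIP5;1 is a channel of the plasma membrane that lets boric acid into root cells and is needed for growth when the supply is short. BOR1 and BOR2 export borate, BOR1 toward the xylem and BOR2 toward the cell wall, and NIP6;1 is a related channel that acts in the shoot. None of these 4 genes has a probe set with a name in the annotation used, and the mutations could not be checked by the signal of the mutated gene.

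The arrays are Affymetrix ATH1 arrays, which use a group of short probes per transcript, and the signals are the linear intensities of the authors. Array medians ran from 194.3 to 204.2 signal units. The root hair expansins EXPA7 and EXPA18 had signals of 862 to 1390 and 923 to 1650 over the 14 arrays. One array stood apart: over tested probe sets, the Spearman correlation of bor2 at 0.3 µM with the others had a median of 0.946, against 0.962 to 0.978 for the remaining 13, and 308 tested probe sets were at least 2-fold higher in bor2 at 0.3 µM than at 100 µM. On it the summed signal of 8 nuclear genes of the photosystems, which mark green tissue, was 6377, against 2585 and 2603 in wild type and bor1 and 1978 to 4173 in the channel mutants at that level. At 100 µM the sum was 2951 to 3450 in the intact genotypes and 2833 to 5436 in the channel mutants. The double with nip6;1 had the highest sum of the channel mutants at both levels, 4173 at 0.3 µM and 5436 at 100 µM. Results are therefore also given without bor2. In whole roots fewer cells of a type and less RNA per cell cannot be told apart.

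Of 13647 tested probe sets, 15 differed in response between the classes at a limma adjusted p under 0.05, which is 0.110% of those tested. The response was higher in the channel mutants for 10 (0.0733%) and lower for 5 (0.0366%). At an unadjusted p under 0.05 there were 1028 (7.53%), where 682 would fall by chance, with 573 higher (4.20%) and 455 lower (3.33%). The 4 responses lay wholly outside the 3 for 1042 probe sets (7.64%), 628 above (4.60%) and 414 below (3.03%), and these included all 15. The difference over all tested probe sets had a median of 0.02. With no filter on dim probe sets none of the 15 passed, and in the 3 matched pairs of genotypes described below 6 did. Of the named genes, AT5G22580 (0.0739), AT3G07540 (0.0519), AT5G06730 (0.0866) and EXPA20 (0.0519) had adjusted p above the threshold in those pairs. Of the 15, 2 (260438_at and 246340_s_at) reached the least mean signal for testing, 113, through a single group. Without bor2 27 probe sets passed, 14 of them among the 15, and AT5G22580 was the one not among them (adjusted p = 0.0563).

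**Figure D1:**
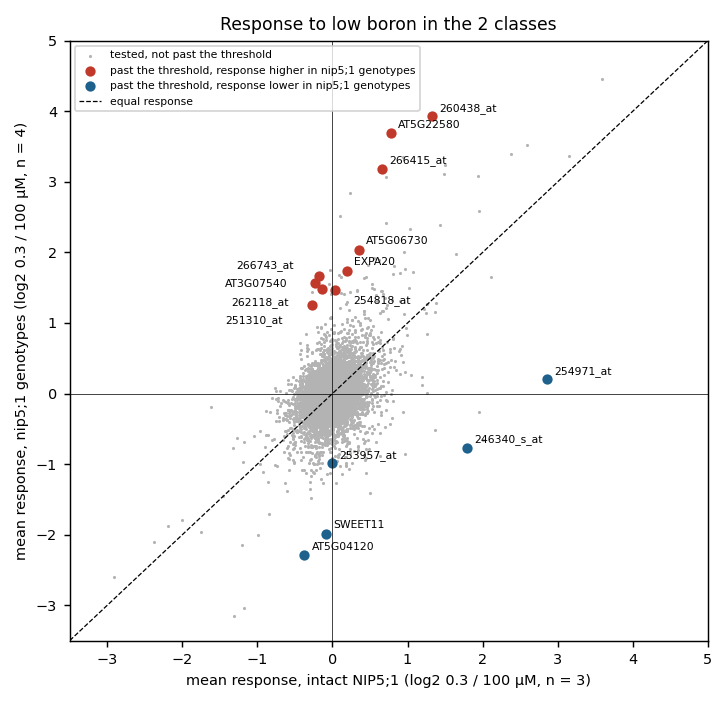
Mean response (log2 ratio of 0.3 over 100 µM boron) of the 3 intact genotypes on the x axis and of the 4 channel mutants (nip5;1 genotypes in the plot) on the y axis, 1 point per tested probe set. Coloured points are the 15 past the threshold and the dashed line marks equal responses. The 10 red points lie above the line, 9 of them with an intact response under 1 log2 unit, and 254971_at and 246340_s_at lie far to the right at 2.86 and 1.79.

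The 15 took 4 forms. For 7 the mean response of the intact genotypes was under 0.25 log2 units in size, while that of the channel mutants was 0.99 or more in size. For 5 both classes responded in the same direction and the channel mutants by more. For 2 the class means had opposite signs, and for 1 both were positive and that of the channel mutants was the smaller. Among all tested probe sets 84.8% had an intact response under 0.25. The other forms made up 3.52%, 3.93% and 7.7% of them, in the order given. Of the opposite ones, 251310_at had an intact mean of -0.27, just past the limit of 0.25. A gene name belongs to 6 of the 15. The other 9 are given by the array's ID, 8 of them because the annotation used does not list them and 246340_s_at because it names several genes.

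SWEET11, a transporter that exports sucrose from cells, had one of the 2 smallest p-values. Its signals at 100 µM were 1891 in wild type, 1282 in bor1 and 301 in bor2, and at 0.3 µM they were 1932, 1206 and 266. In the nip5;1 single mutant and the bor1, bor2 and nip6;1 double mutants it had 1325, 1198, 1318 and 1592 at 100 µM and 266, 341, 438 and 343 at 0.3 µM. Each intact genotype thus held its level, and each channel mutant dropped several-fold. The responses were 0.03, -0.09 and -0.18 in the intact genotypes and ran from -2.32 to -1.59 in the channel mutants. The difference was -1.90 (SE 0.18, 95% interval -2.31 to -1.50, n = 4 and 3, limma adjusted p = 0.00361), a 3.74-fold lower ratio.

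The level of SWEET11 in bor2 was low at both boron levels, so that at 0.3 µM the classes overlapped in signal although their responses did not. The difference of responses was -1.96 without bor2 (adjusted p = 0.0082) and held with each genotype left out in turn (adjusted p up to 0.0324). With genotype as a random block in place of the ratio within each genotype it did not pass (adjusted p = 0.574).

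AT5G04120, annotated as similar to phosphoglycerate mutases, was the other named gene with a lower response. At 100 µM its signals were 1834, 1201 and 780 in wild type, bor1 and bor2 and 1930, 1752, 578 and 2280 in the nip5;1 single mutant and the bor1, bor2 and nip6;1 double mutants. At 0.3 µM they were 1487, 799 and 663 in the first 3 and 328, 333, 197 and 357 in the others. All 7 genotypes were lower at 0.3 µM, and the classes did not overlap there. The responses ran from -0.59 to -0.24 in the intact and from -2.68 to -1.55 in the channel mutants, a difference of -1.92 (SE 0.24, limma adjusted p = 0.0148). Both bor2 genotypes had the lowest levels of their class at 100 µM. The call was lost without wild type (0.107), nip5;1 (0.0671), the double with bor1 (0.077) or the double with nip6;1 (0.0646), and with genotype as a random block (0.286).

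AT5G22580, annotated as a stress-responsive protein with an A/B barrel domain, had the largest positive difference. Its signals at 100 µM were 225, 117 and 268 in wild type, bor1 and bor2, and 177, 245, 146 and 67.3 in the nip5;1 single mutant and the bor1, bor2 and nip6;1 double mutants. At 0.3 µM it had 190, 382 and 487 in the intact genotypes and 1918, 2322, 1461 and 1810 in the channel mutants. The lowest of the last 4 was about 3 times the highest of the 3 intact genotypes. The responses were -0.24, 1.70 and 0.86 against 3.44, 3.24, 3.32 and 4.75, a difference of 2.91 (SE 0.45, 95% interval 1.93 to 3.90, limma adjusted p = 0.0438). The intact genotypes differed among themselves by more than for any other called gene with a name (SD 0.98). The call was lost without any one genotype except bor1 and the double with bor2, with an adjusted p of up to 0.171. It was also lost in the upper 40% of probe sets (0.0548), with quantile normalization (0.0561), with no intensity trend (0.0936) and with a robust variance prior (0.139).

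AT3G07540 encodes a formin, a protein that nucleates actin filaments. At 100 µM all 7 signals lay between 213 and 295. At 0.3 µM they were 145, 309 and 279 in wild type, bor1 and bor2 and 610, 871, 504 and 799 in the nip5;1 single mutant and the bor1, bor2 and nip6;1 double mutants. The classes were together at sufficient boron and apart at low boron. The responses were -0.77, 0.15 and -0.08 against 1.42, 1.71, 1.24 and 1.88, a difference of 1.80 (SE 0.23, limma adjusted p = 0.0174). It was lost without wild type or any channel mutant except the double with bor2 (adjusted p up to 0.088).

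AT5G06730 encodes a class III peroxidase, a family of secreted enzymes that cross-link or loosen the wall. At 100 µM it had signals of 114, 132 and 155 in wild type, bor1 and bor2 and 122, 116, 83.5 and 79.4 in the channel mutants in the same order as before. At 0.3 µM it had 115, 166 and 258 against 421, 475, 309 and 437. Its response was 0.01, 0.32 and 0.73 in the intact genotypes and 1.78, 2.03, 1.89 and 2.46 in the channel mutants. All but wild type were higher at low boron, the channel mutants by more. The difference was 1.69 (SE 0.23, limma adjusted p = 0.0241), and it was lost without any one genotype except bor2 and the double with bor2 (up to 0.171) and with genotype as a random block (0.0542).

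EXPA20 is an expansin, a protein that loosens the wall during growth. Its signals at 100 µM lay between 217 and 291 in all 7 genotypes. At 0.3 µM they were 229, 334 and 299 in wild type, bor1 and bor2 and 674, 924, 748 and 870 in the channel mutants. As for AT3G07540, the classes parted at low boron only. The responses were -0.35, 0.63 and 0.30 against 1.48, 1.90, 1.58 and 1.98, a difference of 1.55 (SE 0.23, limma adjusted p = 0.0336). The call was lost without wild type or any channel mutant except the double with bor2 (up to 0.141). It was also lost in the upper 40% of probe sets (0.0528) and with no intensity trend (0.0701).

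**Figure D2:**
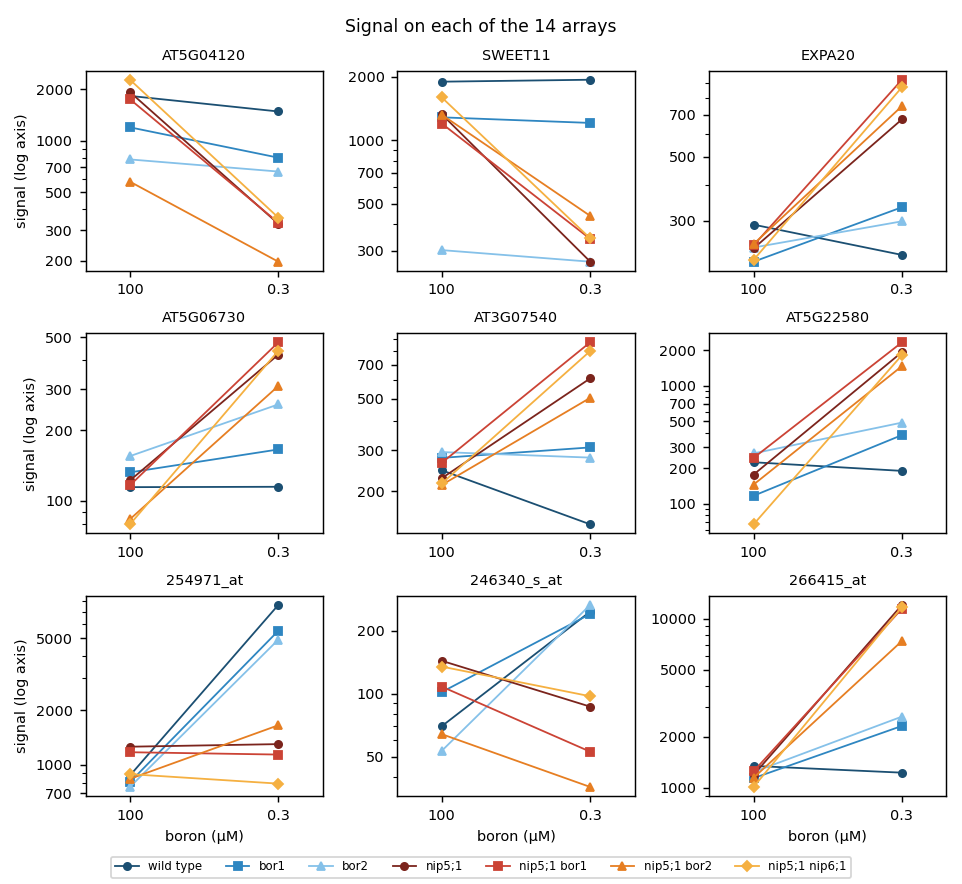
Signal (log axis) of 9 probe sets past the threshold at 100 and 0.3 µM boron, 1 line per genotype and 1 point per array, with intact genotypes in blue and channel mutants in red to yellow. SWEET11 drops in the 4 channel mutants while bor2 is low at both levels, and 254971_at goes from 757 to 875 up to 4908 to 7624 in the 3 intact genotypes.

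Of the probe sets with no gene name, 254971_at had the largest negative difference. At 100 µM its signals were 875, 805 and 757 in wild type, bor1 and bor2 and 1261, 1175, 838 and 890 in the nip5;1 single mutant and the bor1, bor2 and nip6;1 double mutants. At 0.3 µM they were 7624, 5493 and 4908 in the intact genotypes and 1303, 1141, 1655 and 789 in the others. The responses were 3.12, 2.77 and 2.70 in the intact genotypes and 0.05, -0.04, 0.98 and -0.17 in the others, so that the double with bor2 came nearest to the intact class. The difference was -2.66 (SE 0.25, limma adjusted p = 0.00361), and it held with each genotype left out in turn (up to 0.0324). It was the only one of the 15 in which both class means were positive and the intact one was the larger.

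Probe set 246340_s_at was the second with a response in the intact class. Its signals went from 69.9, 102 and 53.3 at 100 µM to 247, 240 and 266 at 0.3 µM in wild type, bor1 and bor2. In the channel mutants they went from 144, 108, 64 and 135 to 86.7, 52.8, 35.8 and 97.2. Every intact genotype was higher and every channel mutant lower at low boron, with means of 1.79 and -0.77. The difference was -2.56 (SE 0.29, limma adjusted p = 0.00772), lost without wild type (0.074) or nip5;1 (0.0503). Its mean signal reached the least value for testing only through the intact genotypes at 0.3 µM, with 250.9 there against 68.1 to 112.6 in the other groups, so it had to differ to be tested and its call is no support. Since the probe set matches several genes, its signal cannot be assigned to one.

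The third of the lower responses without a name, 253957_at, was bright and varied little. Its signals at 100 µM were 4485 to 5696 in all 7 genotypes. At 0.3 µM they were 4750 to 5472 in the intact and 2589 to 3108 in the channel mutants, so the classes lay apart at low boron only. The difference was -0.98 (SE 0.13, limma adjusted p = 0.0239). It was lost without any one genotype except bor2 and the double with bor2 (up to 0.115), in the matched pairs (0.108) and with no intensity trend (0.086).

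Among the higher responses without a name, 266415_at was the brightest. At 100 µM it lay between 1013 and 1348 in all 7 genotypes. Low boron gave 1230, 2322 and 2636 in wild type, bor1 and bor2 and 12034, 11438, 7369 and 11687 in the channel mutants. The ratio in wild type was -0.13, both single exporter mutants had responses of about 1 log2 unit (1.02 and 1.09), and the channel mutants ran from 2.68 to 3.53. The difference was 2.52 (SE 0.29, limma adjusted p = 0.00772), lost without nip5;1 (0.0503) and in the matched pairs (0.0576).

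Probe set 260438_at was dim at 100 µM, at 18.1 to 30.7, with 3 arrays at the floor of 20 signal units to which lower values were set. At 0.3 µM it had 54 to 79.4 in the intact and 275 to 404 in the channel mutants. Both classes were higher at low boron, by means of 1.32 and 3.93. The difference was 2.61 (SE 0.30, limma adjusted p = 0.00772), and the responses of bor2, the double with bor2 and the double with nip6;1 are understated by the floor. Its mean signal reached the least value for testing only through the channel mutants at 0.3 µM, with 349.9 there against 22.7 to 63.2 in the other groups, so it had to differ to be tested and its call is no support. It was lost without wild type (0.074) or nip5;1 (0.0541) and in the matched pairs (0.0884).

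The other 4 were 266743_at (1.85, limma adjusted p = 0.0319), 262118_at (1.63, 0.00757), 251310_at (1.52, 0.0456) and 254818_at (1.42, 0.0336). In 266743_at the signals at 0.3 µM were 373, 374 and 506 in the intact genotypes and 1000 to 1623 in the channel mutants. In 251310_at they were 97.9 to 112 against 215 to 308. In each of these 2 probe sets the classes did not overlap at 0.3 µM. The mean signal of 251310_at reached the least value for testing largely through the channel mutants at 0.3 µM, so its call is no support. For 262118_at the signals at 0.3 µM were 186 to 367 against 408 to 607, also with no overlap. For 254818_at they were 155, 173 and 574 against 226 to 484, where the 574 of bor2 lay above every channel mutant. With genotype as a random block 254818_at (0.661) and 266743_at (0.0793) did not pass, nor did 254818_at (0.153) and 251310_at (0.18) in the matched pairs. Calls were also lost for 266743_at with no intensity trend (0.0701) and for 251310_at with the GAPDH ratio as a covariate (0.0831). With a genotype left out the adjusted p reached 0.285 for 251310_at, 0.232 for 254818_at, 0.207 for 266743_at and 0.0503 for 262118_at.

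**Figure D3:**
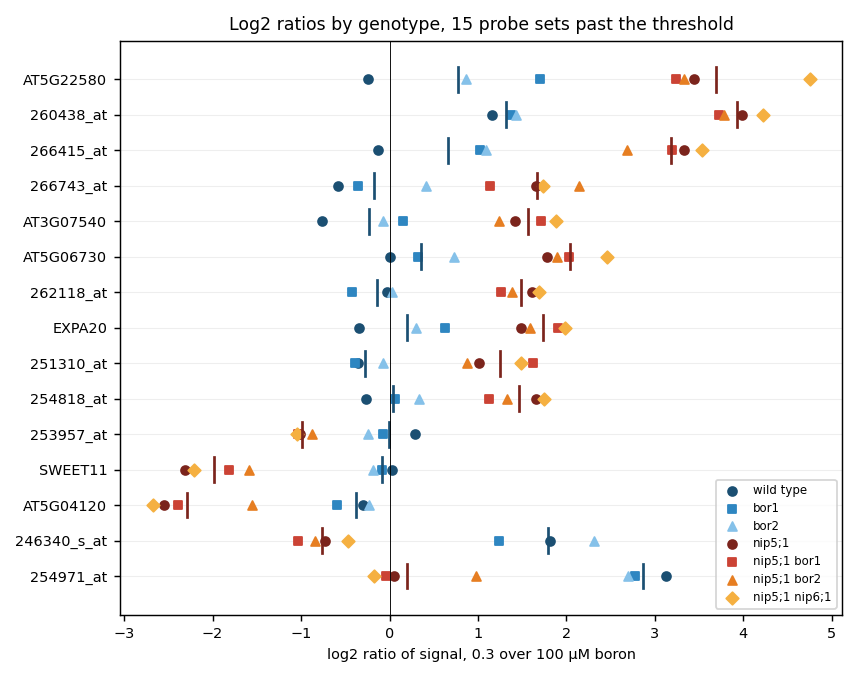
Log2 ratio of signal at 0.3 over 100 µM boron (x axis) in each of the 7 genotypes for the 15 probe sets past the threshold, with short vertical bars at the class means. In every row the 4 channel mutants lie on one side of the 3 intact ones, with the double with bor2 nearest to the intact genotypes in rows such as AT5G04120 (-1.55) and 254971_at (0.98).

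For 3 of the channel mutants a matched genotype with NIP5;1 intact exists, so that the difference can be read within each background. The pairs were wild type with nip5;1, bor1 with the double with bor1 and bor2 with the double with bor2. All 15 had the same sign in these 3 pairs, against 26.7% of all tested probe sets. For the 15 that sign was fixed in advance and is no support, since their 4 responses lay wholly outside the 3. In the wild-type background the size of the difference over the 15 averaged 2.30 (1.29 to 3.68), in the bor1 background 1.76 (0.96 to 2.81) and in the bor2 background 1.56 (0.63 to 3.16). For 12 of the 15 it was largest in the wild-type background and for 11 it was smallest in the bor2 background. Over all tested probe sets the wild-type background had the largest size in 27.3% and the bor2 background the smallest in 29.9%. The difference between backgrounds was not tested, since each rests on 1 pair of ratios, and the 15 were called with these same ratios.

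The difference of responses can come from the level at either boron supply. In 14 of the 15 (93.3%) the classes were farther apart at 0.3 µM than at 100 µM, against 61.5% of all tested probe sets. For EXPA20 the mean log2 signal of the channel mutants minus that of the intact ones was 1.49 at 0.3 µM and -0.05 at 100 µM, and for 266415_at it was 2.41 and -0.11. For SWEET11 it was -1.32 and 0.58, with bor2 low at both levels as given above. The exception was 254818_at, with 0.54 at 0.3 µM and -0.88 at 100 µM, where bor2 had 457 and the channel mutants 67.1 to 183.

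**Figure D4:**
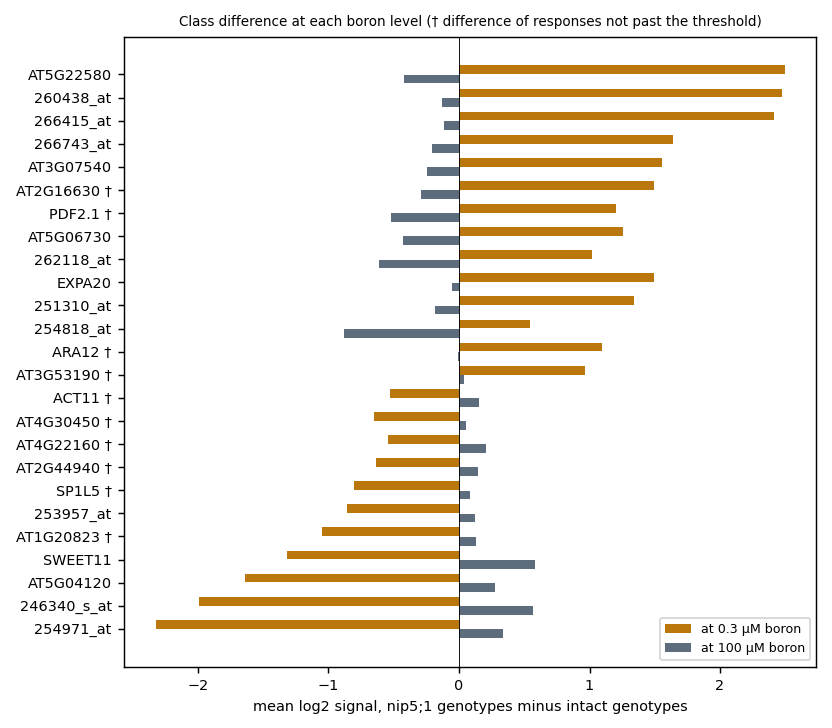
Mean log2 signal of the 4 channel mutants minus that of the 3 intact genotypes at 0.3 µM (brown) and at 100 µM boron (grey) for the 15 probe sets past the threshold and 10 further named genes, those with the smallest p that fill each direction to 8 named genes (marked with a dagger). Brown bars are the longer ones in all rows except 254818_at, with 0.54 against -0.88.

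A further 10 named genes, taken by smallest p to fill each direction to 8, did not pass the threshold and are given as values. ARA12, a secreted subtilisin-like protease, was at 924 to 1098 on all 7 arrays at 100 µM. At 0.3 µM it had 877 to 1090 in the intact and 1826 to 2568 in the channel mutants, which gave a difference of 1.11 (SE 0.18, limma adjusted p = 0.0528). AT3G53190, of the pectin lyase-like family, had 1160 to 1355 at 100 µM in all genotypes. Its values at 0.3 µM were 948 to 1298 against 1836 to 2429, a difference of 0.92 (SE 0.15, adjusted p = 0.065). In both genes the classes did not overlap at 0.3 µM and lay together at 100 µM.

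AT2G16630, of a family of secreted proteins related to the pollen allergen Ole e 1, had a difference of 1.78 (SE 0.29, limma adjusted p = 0.065) with 92 to 182 against 329 to 474 at 0.3 µM. The defensin-like PDF2.1 had 1.72 (SE 0.29, adjusted p = 0.065) with 162 to 246 against 385 to 762. Each of the 4 genes with positive values passed under some alternatives, PDF2.1 only with the GAPDH ratio as a covariate (0.0491).

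The 6 with negative values were AT4G30450 (-0.70, limma adjusted p = 0.118), AT1G20823 (-1.18, 0.142), SP1L5 (-0.89, 0.144), AT2G44940 (-0.78, 0.144), AT4G22160 (-0.75, 0.169) and ACT11 (-0.69, 0.169). SP1L5 belongs to a family of microtubule-associated proteins that direct cell expansion, and ACT11 encodes an actin. ACT11 had 509 to 759 at 100 µM in all genotypes. Its 0.3 µM signals were 570 to 630 in the intact and 382 to 489 in the channel mutants, with no overlap. AT1G20823 had 236, 257 and 584 at 0.3 µM in the intact genotypes, the 584 in bor2, and 145 to 175 in the others. Without bor2 its difference was -0.83 (adjusted p = 0.116).

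AT3G53400 and CPUORF47, chosen after their values were seen, had large responses in every genotype and did not pass the threshold for the difference. AT3G53400 went from 121 to 184 at 100 µM to 1574, 1735 and 1851 in the intact and 3226 to 3767 in the channel mutants at 0.3 µM. The difference was 0.87 (SE 0.18, limma adjusted p = 0.134, and 0.0482 without bor2), on responses of 3.59 and 4.46. CPUORF47 had a difference of 0.93 (SE 0.22, adjusted p = 0.200) on responses of 2.60 and 3.52. For both genes the 4 responses lay above the 3.

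Of the 46 gene lists examined, 18 had at least 5 tested members. For these the members' counts are read against the shares over all probe sets. Many lists lay above the 7.53% of all tested probe sets at an unadjusted p under 0.05. The CAP family had 27.3%, cytochrome P450 and photosystem genes 25%, xyloglucan endotransglucosylases 22.2%, and subtilases, sugar transport and abscisic acid 20%. Nitrate had 16.7%, cellulose and hemicellulose 11.5%, hypoxia core 11.1%, plastid-encoded transcripts 8.82% and glutathione transferases 8.33%. WRKY factors, calcium signalling and autophagy had 0%. AT5G06730 was the 1 of 40 class III peroxidases that passed, against 0.110% of all tested probe sets. At an unadjusted p under 0.05 there were 12 higher and 4 lower, 40% of the list against 7.53% of all tested probe sets, and the differences ran from -0.98 to 1.69 with a median of 0.12. Without bor2 2 passed, with 13 higher and 2 lower at that unadjusted p, 37.5% against 7.25%. The peroxidases next to AT5G06730 in p, chosen after their values were seen, were AT4G36430 (1.21, SE 0.25, limma adjusted p = 0.142) and AT1G68850 (0.65, SE 0.17, 0.267). The lowest was AT5G19890 (-0.98, SE 0.36, 0.510).

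The summed signal of the 40 peroxidases at 0.3 µM was 91403 to 100492 in the intact and 86917 to 101138 in the channel mutants, so the classes overlapped in total level. At 100 µM the sums were 88447 to 98103 and 79421 to 94167.

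**Figure D5:**
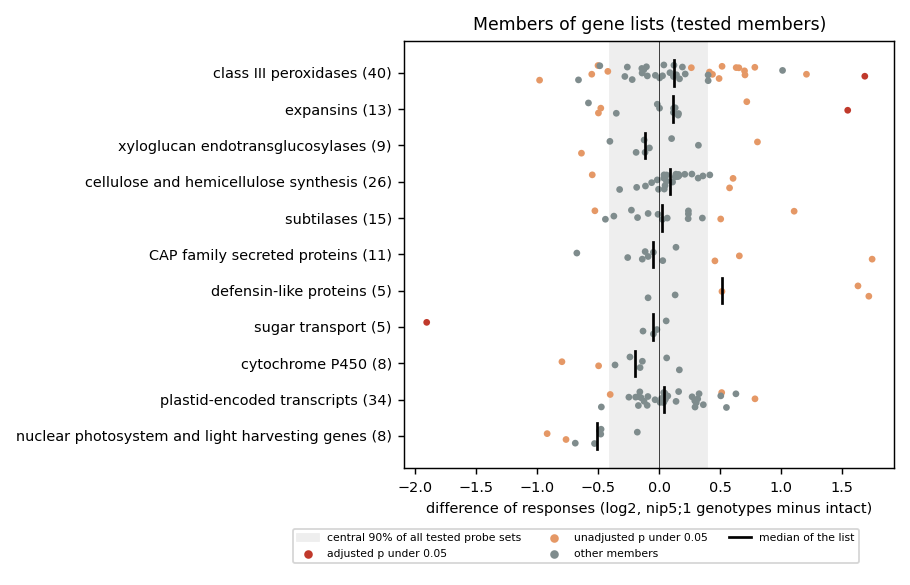
Difference of responses (log2, x axis) of each tested member in 11 of the gene lists, with the number of tested members in parentheses, the list's median as a black bar and the central 90% of all tested probe sets (-0.40 to 0.39) shaded. Peroxidases spread to both sides around a median of 0.12, while all 8 photosystem genes lie below 0 with a median of -0.51.

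Of 13 expansins EXPA20 passed, against 0.110% of all tested probe sets. At an unadjusted p under 0.05 there were 2 higher and 2 lower, which is 30.8% against 7.53% (38.5% against 7.25% without bor2). The median was 0.12, or -0.03 without wild type. Of 9 xyloglucan endotransglucosylases, which cut and rejoin wall xyloglucan, none passed. XTH20 had 0.81 (SE 0.19, limma adjusted p = 0.185) and XTH21 -0.64 (SE 0.22, 0.445), with a median of -0.11, or 0.08 without bor2. Of 26 genes of cellulose and hemicellulose synthesis and acetylation none passed (median 0.09). The trichome birefringence-like AT2G31110 had 0.61 (adjusted p = 0.258) and TBL38 -0.55 (0.335). Of 15 subtilases none passed (median 0.03), and AT3G14240 had 0.51 (0.244) beside ARA12.

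A pair of lists of small secreted proteins had members with large positive values. Of 5 defensin-like genes none passed, and 3 were higher at an unadjusted p under 0.05, 60% against 4.20% of all tested probe sets in that direction, with a median of 0.52 (0.43 to 0.57 with any 1 genotype left out). These were PDF2.1, LCR69 (0.52, SE 0.11, limma adjusted p = 0.134) and PDF1.4 (1.63, SE 0.53, 0.422), the last with 1 array at the floor and named after its value was seen. Of 11 genes of the CAP family, secreted proteins related to PR-1, none passed and the median was -0.05 (-0.10 to 0.04). AT4G33720 had 1.75 (SE 0.60, adjusted p = 0.448), and its responses of 1.48, 0.54 and 2.47 in the intact genotypes overlapped the 2.08 to 4.87 of the channel mutants. AT4G25790 had 0.66 (SE 0.16, 0.243), with no overlap.

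SWEET11 was the 1 of 5 tested sugar transport genes that passed, against 0.110% of all tested probe sets. The list's median was -0.05 (-0.25 to 0.06 with 1 genotype left out). The 1 tested member of the boron transport list, AT3G06450 of the BOR family, had responses of -0.38, -0.29 and -0.35 in the intact genotypes and 0.01, 0.34, -0.09 and 0.57 in the channel mutants. The 4 lay above the 3, and the difference was 0.55 (SE 0.17, 95% interval 0.17 to 0.93, limma adjusted p = 0.377).

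All 8 nuclear genes of the photosystems, light harvesting and rubisco activase had a negative difference, none past the threshold, with a median of -0.51. LHCB4.2, a minor light-harvesting protein, had -0.92 (SE 0.35, limma adjusted p = 0.531) and the photosystem II protein PSBY -0.76 (SE 0.33, 0.643). The list's median response was 0.93 in bor2, -0.14 in wild type and -0.39 in bor1, and it ran from -0.64 to -0.25 in the channel mutants. Without bor2 the list's median difference was -0.21, LHCB4.2 had -0.39 and PSBY -0.29. The part of the bor2 array in this pattern was measured only by leaving it out.

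The 34 plastid-encoded transcripts had a median of 0.04 with none past the threshold, and rpoC1 of the plastid RNA polymerase (0.79, limma adjusted p = 0.426) and rbcL, the large subunit of rubisco (0.51, 0.497), had the smallest p. The other lists with no member past the threshold were cytochrome P450 (8 tested, median -0.20), glutathione transferases (12, -0.16), WRKY factors (5, 0.10), abscisic acid and drought response (5, -0.02), calcium signalling (8, -0.09, or -0.18 without bor1), hypoxia core (9, 0.09), nitrate transport and assimilation (6, 0.04) and autophagy (11, -0.07). With 1 genotype left out the medians ran from -0.27 to 0.48 for hypoxia core, -0.05 to 0.21 for nitrate, -0.06 to 0.31 for WRKY factors and -0.08 to 0.04 for abscisic acid. They ran from -0.16 to 0.01 for autophagy, -0.39 to -0.12 for cytochrome P450 and -0.21 to -0.05 for glutathione transferases. The plastid-encoded list ran from -0.02 to 0.20, so the medians of this list and of hypoxia core, nitrate, WRKY factors, abscisic acid and autophagy took both signs. WRKY53 had -0.70 (SE 0.63, adjusted p = 0.904), and its responses were 2.81 in bor2 and -0.50 to 0.33 in the other 6 genotypes. Without bor2 it was 0.35.

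The spread of responses over the tested probe sets gives the size of the whole response per genotype. The SD of the log2 ratios was 0.287 in wild type, 0.301 in bor1 and 0.402 in bor2. It was 0.319 in nip5;1, 0.421 in the double with bor1, 0.384 in the double with bor2 and 0.382 in the double with nip6;1. Wild type and bor1 had the smallest values and bor2 lay among the channel mutants, so the classes overlapped. The means were 0.330 ± 0.0626 (SD, n = 3) and 0.376 ± 0.0424 (n = 4), a difference of 0.0465 (exact two-sided permutation p = 0.286, over 35 splits, where 0.0286 is the smallest p possible). Without bor2 the difference was 0.0824 (exact two-sided permutation p = 0.0667, the smallest p possible with the genotypes that remain). The ratio of 3′ to 5′ GAPDH signals, a measure of RNA integrity, changed with low boron by 0.19 ± 0.31 and 0.24 ± 0.26 log2 units in the classes, a difference of 0.05 (exact two-sided permutation p = 0.857).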

How the data were processed

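Values are linear intensity values deposited by the authors, made with MAS5 per the submitters' processing notes; neither version nor settings are known here, and the table has no detection calls. The trimmed mean (0.02 of probe sets cut at each end) was 500.04 on every array. Of 22810 probe sets, 64 controls were left out. Values were scaled to a common trimmed mean, set to a floor at the 20th percentile (20 signal units) and put on the log2 scale; the upper 60% by mean signal, 13647 probe sets (mean signal at least 113), were tested, and 0.0173% of their values lay at the floor. Precision is limited by the number of arrays, which have no depth.

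The 7 log2 ratios were compared between classes with limma 3.58.1 in R 4.3.3 (intensity trend, 5 residual degrees of freedom, two-sided); p-values were adjusted by Benjamini-Hochberg over the 13647 probe sets. P-values measure the spread between genotypes of a class; the labels do not say whether plants were grown separately. The fit was checked on simulated data. Gene names came from the platform annotation through a RefSeq table of TAIR10.1: 13513 probe sets name 1 gene, 503 several and 8730 are not listed. No coordinates or sequences are given.

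The members and the 46 lists were chosen with earlier results of these data known. Some lists were completed by locus once the annotation was seen. Named genes were those past the threshold with no overlap between classes, filled by smallest p to 8 per direction, up to 3 probe sets per direction without a gene name, and up to 4 list members that passed or the 2 with the smallest p in lists with 5 or more tested members and the boron transport list. The remaining called probe sets were added by ID. Alternatives were no filter, the upper 40%, other scalings, floors and priors, the GAPDH ratio as a covariate, each genotype left out, matched pairs and a random block (statmod 1.5.0).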

Additional observations from a re-analysis of the deposited data

Results flagged for a closer look

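The 15 differences of responses past the threshold are flagged because the effect of low boron differed between the classes by a test of the difference itself. For 260438_at and 246340_s_at that test is no support, since each reached the least mean signal for testing only through a single group. The log2 differences are -2.66 (254971_at), -1.90 (SWEET11), 1.63 (262118_at), 2.52 (266415_at), -2.56 (246340_s_at), 2.61 (260438_at), -1.92 (AT5G04120), 1.80 (AT3G07540), -0.979 (253957_at), 1.69 (AT5G06730), 1.85 (266743_at), 1.42 (254818_at), 1.55 (EXPA20), 2.91 (AT5G22580) and 1.52 (251310_at).

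Among the 4 channel mutants, 25 named probe sets were examined for a sample far from the others and 2 had one, where chance gives about 1 in 20. The log2 ratio of AT5G22580 was 4.75 in the double with nip6;1, above 3.24 to 3.44 in the other genotypes of the class, and its signal there at 100 µM was 67.3 against 146 to 245. The log2 ratio of AT4G22160 was -0.59 in nip5;1, against -1.06 to -1.03 in the others.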

How the results depend on the processing

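The count of 15 was 0 with no filter on dim probe sets (1465 at an unadjusted p under 0.05), 7 in the upper 40% of probe sets, 6 in the 3 matched pairs of genotypes and 27 at an adjusted p under 0.1, and ran from 2 to 52 with a genotype left out. It was 4 without wild type, 2 without nip5;1, 7 without the double with bor1, 6 without the double with nip6;1, 27 without bor2 and 52 without the double with bor2. The random block gave 21, of which 10 were among the 15. Of the 6 named genes that passed, 0 did with no filter, 3 in the upper 40%, 2 in the matched pairs, 3 with the random block and 1 to 6 with a genotype left out. SWEET11 and 254971_at alone of the 15 passed whichever genotype was left out, and with no filter had adjusted p of 0.243 and 0.317. WRKY53 ran from -1.31 to 0.35 with a genotype left out and reversed its sign without bor2 (0.35). Alternative values were taken over 56 genes and probe sets named or compared. Of 991 such values, 890 kept their direction and side of the threshold, 85 lost the call, 15 gained one and 1 reversed. Most of the 56 had not passed, and only the 15 that had could lose a call, so all 85 losses fell on them. The share kept therefore does not measure how stable the 15 calls were. Among these, AT5G22580 passed in 7 of 18 alternatives and 254971_at in 17 of 18. The difference in response size was 0.0251 to 0.0824 with a genotype left out and kept its sign in the alternatives run. Leaving out each genotype for the list medians was chosen after seeing the data. Each genotype and boron level has a single replicate number, so no block by replicate number could be fitted. The pairing of both levels within a genotype is the design itself, and the matched pairs of genotypes were fitted as an alternative. With 1 array per genotype and level, 7 ratios limit the precision, and dim transcripts near the floor have understated responses.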
